A study of Mus musculus with 108 samples.

Results

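The NAD metabolism genes described here are 8 enzymes of nicotinamide adenine dinucleotide (NAD) supply and use, Nampt, Nmrk1, Nnmt, Sirt1, Nadsyn1, Qprt, Haao and Nadk, of 25125 gene symbols in the liver tables. They were chosen by symbol, and the transcript with the highest mean was taken for each; the same transcript was chosen in all 3 tables. All 8 passed the filter on low values, a table mean of at least 10. RNA was sequenced from livers of male mice at zeitgeber times (ZT) 2, 6, 10, 14, 18 and 22, counted in hours from lights on, with 3 replicates at each time and 18 libraries a set. The 6 sets were Esrrg LKO on HFD (B6 by title, with a mixed B6S1/SvImJ strain label), Errg-Cre on HFD (129), and wild-type mice on HFD or chow of the strains 129S1/SvImJ (129) and C57BL/6J (B6). HFD is the high-fat, high-sucrose diet D12492i. Esrrg, also called Errg, encodes an oestrogen-related receptor; the series describes the LKO as a loss of Esrrg from hepatocytes. The labels give neither ages nor the promoter that drives Cre. Nor do they say that replicates came from separate animals, so the p-values rest on a spread that may be technical.

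NAD carries electrons in fuel oxidation and is consumed by sirtuins and poly(ADP-ribose) polymerases, so liver cells rebuild it continually. In the salvage pathway NAMPT, the rate-limiting enzyme, returns nicotinamide to the pool, and NMRK1 phosphorylates nicotinamide riboside. The de novo pathway runs from tryptophan through kynurenine to quinolinate, which HAAO helps to form, and QPRT and NADSYN1 carry it on to NAD. NNMT methylates nicotinamide for disposal, NADK phosphorylates NAD to NADP, and SIRT1 is a deacetylase that uses NAD. In mouse liver Nampt is known as an output of the circadian clock, whose factors bind E-boxes, and SIRT1 is known to act back on clock proteins.

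The 250 bases upstream of the start of Nampt, Nmrk1 and Sirt1 are shown because the 2 salvage genes cycled in every set, whereas Sirt1 passed the rhythm test in 1 set. They are from RefSeq (GRCm38.p6) and lie at chr12:32820085-32820334 on the plus strand for Nampt, chr19:18631766-18632015 on the plus strand for Nmrk1 and chr10:63339036-63339285 on the minus strand for Sirt1. Capitals mark a match to any of the 5 motifs searched.
Nampt: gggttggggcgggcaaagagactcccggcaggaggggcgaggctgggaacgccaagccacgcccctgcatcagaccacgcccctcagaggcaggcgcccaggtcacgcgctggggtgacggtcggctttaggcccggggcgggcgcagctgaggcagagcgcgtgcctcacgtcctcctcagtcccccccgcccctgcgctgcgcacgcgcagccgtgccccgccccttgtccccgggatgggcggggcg
Nmrk1: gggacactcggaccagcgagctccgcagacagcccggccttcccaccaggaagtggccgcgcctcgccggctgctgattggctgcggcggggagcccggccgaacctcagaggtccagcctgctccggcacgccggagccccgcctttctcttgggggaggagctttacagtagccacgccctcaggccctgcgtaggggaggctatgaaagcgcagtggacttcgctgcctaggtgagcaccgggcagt
Sirt1: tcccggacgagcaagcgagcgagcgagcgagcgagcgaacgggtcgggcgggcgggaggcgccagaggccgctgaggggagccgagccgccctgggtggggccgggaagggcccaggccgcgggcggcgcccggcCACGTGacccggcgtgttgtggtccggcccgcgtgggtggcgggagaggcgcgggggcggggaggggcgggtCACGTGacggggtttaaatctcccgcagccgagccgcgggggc
Windows from 250 bases before to 50 after the start were searched on both strands in 32851 promoters. The motifs were the E-box CACGTG (in 7.15% of all windows), the variant CACGTT (4.68%), the D-box TTANGTAA (2.32%), the element TAGGTCA bound by REV-ERB and ROR receptors (2.61%) and the ERR element TCAAGGTCA (0.423%). None of these letters was in the Nampt or Nmrk1 window, nor in those of Nadsyn1 and Qprt. Sirt1 held CACGTG starting 115 and 43 bases before its start, Nadk held it 40 bases before 1 of its 2 listed starts, and Haao held CACGTT 41 bases into the transcript. The promoter table matched 7 of the 8 genes.

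In mm10, which the authors used, Nampt is at chromosome 12, 32820335 to 32853369 (plus strand), Nmrk1 at chromosome 19, 18632016 to 18652184 (plus), Nnmt at chromosome 9, 48591877 to 48605123 (minus) and Sirt1 at chromosome 10, 63319005 to 63339035 (minus). Nadsyn1 is at chromosome 7, 143795591 to 143822852 (minus), Qprt at chromosome 7, 127107770 to 127122029 (minus), Haao at chromosome 17, 83831354 to 83846790 (minus) and Nadk at chromosome 4, 155563815 to 155591001 (plus). The transcripts fall into a GC-poor group, Nampt (40.3% GC), Sirt1 (42.9%) and Nmrk1 (43.2%), and a GC-rich group, Nnmt (51.1%), Nadk (52.2%), Nadsyn1 (52.9%), Qprt (55.5%) and Haao (55.8%).

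The libraries differed in how their values ran with transcript GC content. The GC slope, the trend of a library's log2 values with GC in log2 units per 10 points, had a median of 0.0995 in 129 HFD (-0.043 to 0.479), 0.336 in 129 chow (-0.977 to 0.725), 0.16 in B6 HFD (0.003 to 0.451) and -0.413 in B6 chow (-1.23 to 0.243). Mir6236, an annotated microRNA locus whose values varied by orders of magnitude between libraries, had medians of 1104 in 129 HFD, 2570 in 129 chow, 8292 in B6 HFD and 222.5 in B6 chow. The sum of 8 hepatocyte markers was 262103 or more in each wild-type library. The libraries labelled Esrrg LKO still held Esrrg, the targeted gene, which averaged 17.7 ± 8.36 (SD, n = 18) there, 27.4 ± 13.6 in Errg-Cre and 29.0 ± 12.8 in B6 HFD wild type, in tables normalised separately. Whether the summed reads cover the deleted part is not given in the sources used here. In whole liver, fewer cells of a type and less RNA per cell cannot be told apart.

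Per kilobase of transcript, Haao had the highest level of the 8 in every set, from 584 per kb in B6 chow to 1675 per kb in Errg-Cre. In B6 chow its mean was not resolved from that of Nnmt (584 ± 350 and 546 ± 329 per kb). Sirt1 and Nadsyn1 were the lowest in every set, at 21.6 to 40.1 per kb for Sirt1 and 28.7 to 66.7 per kb for Nadsyn1. Nnmt was next after Haao in B6, at 500 per kb on HFD and 546 per kb on chow, but ranked lower in 129, at 205 per kb on HFD and 183 per kb on chow. In 129 the means of Qprt (230.2 per kb on HFD and 222 on chow), Nnmt and Nampt (172 per kb on HFD) differed from each other by less than the SD of Nnmt between libraries (149 per kb on HFD and 137 on chow), so their order is not resolved.

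Nampt and Nmrk1 cycled together in all 6 sets, and they were the only members to do so. Both passed the test of a 24 h cosine in each set, whereas 0.904% of 10953 genes did so in all 6. Their fitted peaks fell at ZT 13.25 to 15.05 in the 4 wild-type sets and in Errg-Cre, and at ZT 10.31 to 10.96 in the libraries labelled Esrrg LKO.

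In 129 HFD livers Nampt was 1844, 1088 and 1366 at ZT14, where it was highest, and 405, 333 and 420.2 at ZT2. In 129 chow livers it was 2309, 1869 and 1877 at ZT14 and 517, 555 and 246 at ZT6. In both sets all 3 libraries at the high time lay above all 3 at the low time. In B6 HFD livers Nampt was 1231.5, 1192 and 1162 at ZT14 and 412, 768 and 575 at ZT2, a mean ratio of 2.04 between the highest and lowest time. In B6 chow livers it was 1768, 2068 and 1597 at ZT14 and 505, 609 and 724 at ZT2, a ratio of 2.96. The groups did not overlap in B6 either, but the B6 HFD course was the shallowest of the wild-type sets.

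The log2 amplitude of Nampt was 0.996 ± 0.107 in 129 HFD (SE, peak ZT 13.25 ± 0.41, adjusted p = 1.27e-09) and 1.07 ± 0.11 in 129 chow (peak ZT 14.73 ± 0.38, adjusted p = 4.49e-11). It was 0.45 ± 0.11 in B6 HFD (peak ZT 14.33 ± 0.91, adjusted p = 0.0182) and 0.80 ± 0.11 in B6 chow (peak ZT 15.05 ± 0.51, adjusted p = 1.39e-06). The B6 HFD call rested on ZT2 replicate 1, without which the amplitude was 0.37 and the adjusted p 0.102. It was also lost when that set was fitted alone and without replicate 1 or without replicate 2 of every time. The other calls for Nampt and Nmrk1 held when each library of their set was left out in turn.

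Nmrk1 followed the same course at a lower level. It was 249, 319 and 297 at ZT10 and 96.1, 59.1 and 52.4 at ZT6 in 129 HFD livers, and 250.9, 243 and 251.5 at ZT14 and 83.4, 98.1 and 62.2 at ZT6 in 129 chow livers. In B6 HFD livers it was 312, 262 and 281 at ZT14 and 49.0, 81.3 and 76.0 at ZT2, and in B6 chow livers 259.7, 277 and 404 at ZT14 and 113, 94.0 and 112 at ZT6. High and low times did not overlap in any wild-type set. Its log2 amplitude was 1.04 ± 0.13 in 129 HFD, 0.66 ± 0.13 in 129 chow, 0.95 ± 0.13 in B6 HFD and 0.80 ± 0.13 in B6 chow, with peaks at ZT 13.66, 14.24, 13.95 and 14.45 and adjusted p of 1.51e-07, 2.75e-04, 6.86e-06 and 9.3e-05. Nmrk1 in 129 chow had 1 library of 222.5 at ZT22, above the other libraries of that time (84.0 and 93.5).

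**Figure D1:**
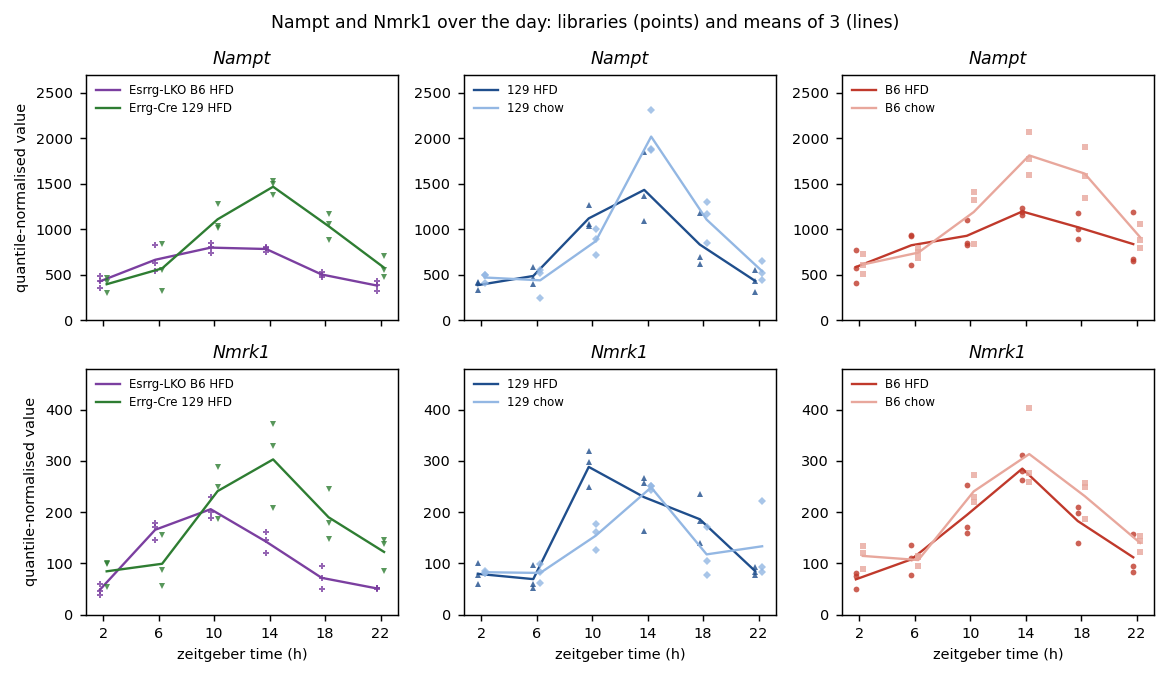
Quantile-normalised values of Nampt (top) and Nmrk1 (bottom) against zeitgeber time in hours, with 1 point a library and lines through the means of 3; Esrrg LKO and Errg-Cre are at the left, 129 in the middle and B6 at the right. The means peak at ZT14 in most sets and at ZT10 in Esrrg LKO, where Nampt reaches 798 and Nmrk1 206.

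The clock genes measured beside them put these peaks in order. Dbp, a clock output factor, peaked at ZT 10.4 in 129 HFD, 11.6 in 129 chow, 9.7 in B6 HFD and 11.3 in B6 chow. Nampt peaked 2.81 to 4.62 h and Nmrk1 2.61 to 4.24 h after Dbp in these 4 sets. Against Per2, a clock repressor, Nampt peaked 2.09 h and 2.11 h earlier in 129 HFD and 129 chow, but 0.44 h later in B6 HFD and 0.49 h earlier in B6 chow. These gaps are given with no test.

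In the libraries labelled Esrrg LKO the 2 salvage genes peaked earliest. Nampt was 385, 436 and 322 at ZT22 and 741, 808 and 846 at ZT10, with a log2 amplitude of 0.59 ± 0.06 and a peak at ZT 10.96 ± 0.38 (adjusted p = 1.17e-05). Nmrk1 was 188, 229 and 200.4 at ZT10 and 58.8, 39.1 and 46.3 at ZT2, with an amplitude of 1.13 ± 0.10 and a peak at ZT 10.31 ± 0.34 (adjusted p = 5.87e-06). Leaving out each of the 18 libraries in turn kept the peaks within ZT 10.77 to 11.30 for Nampt and ZT 10.06 to 10.50 for Nmrk1. The clock genes were early in these livers too: Nr1d1, which encodes REV-ERBα, peaked at ZT 3.9, Dbp at 6.8, Per2 at 10.4 and Arntl, which encodes the activator BMAL1, at 19.2. In B6 HFD wild type they peaked at ZT 6.9, 9.7, 13.9 and 21.6. Relative to Dbp the salvage genes kept their place, Nampt 4.17 h and Nmrk1 3.51 h after it. The sets were normalised separately, and no control set was among the libraries normalised with the knockout. Genotype therefore cannot be told apart from the set, and no test was made.

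In Errg-Cre livers Nampt was 1502.5, 1372.5 and 1527 at ZT14 and 467, 418 and 303.5 at ZT2, and Nmrk1 was 372, 209 and 329 and 97.8, 101 and 54.4 at the same times. Their log2 amplitudes were 0.95 ± 0.10 and 0.95 ± 0.14, with peaks at ZT 14 for Nampt and ZT 14.04 for Nmrk1 (adjusted p = 8.06e-05 for Nampt and 0.00116 for Nmrk1).

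**Figure D2:**
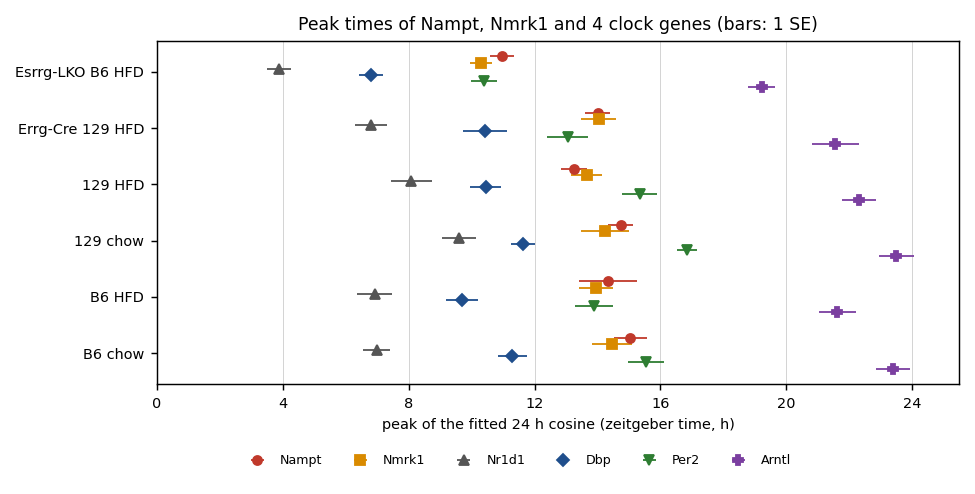
Peak of the fitted 24 h cosine in zeitgeber hours for Nampt, Nmrk1 and 4 clock genes in each set, with bars of 1 SE. Nampt and Nmrk1 lie between Dbp and Arntl in every set, and all 6 genes lie earliest in Esrrg LKO, where Nampt peaks at 10.96 and Dbp at 6.8.

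The other 6 genes cycled in few sets. In 129 HFD 2 of 8 members passed the rhythm test (background, 7.04% of 11287 genes) and in 129 chow 5 of 8 (47.8%). In B6 HFD 2 of 8 passed (4.08%) and in B6 chow 3 of 8 (6.16%). In Errg-Cre 3 of 8 passed (17.9% of 11622 genes), and in Esrrg LKO 2 of 8 (6.09% of 11946 genes). The 5 calls in 129 chow stand against a background in which nearly as large a share of all genes passed.

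Nnmt, which removes nicotinamide by methylation, peaked later than the salvage genes in the chow sets. In 129 chow livers it was 346, 298 and 469 at ZT18 and 36.0, 99.5 and 17.1 at ZT6, and in B6 chow livers 1246.5, 927 and 743 at ZT22 and 290.2, 159 and 341 at ZT6. The high and low times did not overlap. Its log2 amplitude was 1.59 ± 0.25 in 129 chow (peak ZT 17.5 ± 0.60, adjusted p = 4.5e-06) and 1.09 ± 0.25 in B6 chow (peak ZT 18.5 ± 0.87, adjusted p = 0.00879). The B6 chow call was lost without replicate 1 (0.0794) or replicate 2 (0.174) of every time. On HFD it was 0.86 in 129, where the adjusted p was 0.0551 and was 0.0307 to 0.0462 when any of 8 libraries was left out, and 0.41 in B6 (adjusted p = 0.744). In 129 HFD Nnmt also passed with Mir6236 as a covariate (0.048), with the GC and length trend removed (0.0285) and without 4 libraries that stood apart (0.0425). There it did not pass with the set fitted alone (0.122) or without replicate 1 (0.655), 2 (0.194) or 3 (0.125) of every time. Nnmt was the most variable member between libraries of 1 time: in Errg-Cre it was 248, 1553 and 336 at ZT14, and over all 18 libraries it ran between 16.1 and 1553. In that set Nnmt did not pass by the cosine fit. With time as a factor in place of a cosine it passed there (adjusted p = 0.0165). Its Errg-Cre means were 712 at ZT14 and 35.4 at ZT6, and the libraries of these times did not overlap.

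With the cosine fit on the deposited values Haao and Nadk passed the rhythm test in 129 chow alone. Haao had a log2 amplitude of 0.65 ± 0.21 (peak ZT 16.8, adjusted p = 0.0251) and Nadk of 0.47 ± 0.09 (peak ZT 17.8, adjusted p = 1.33e-04). In that set the GC slope changed with time as well, with medians of -0.612 at ZT2, -0.58 at ZT6, 0.357 at ZT10, 0.257 at ZT14, 0.582 at ZT18 and 0.537 at ZT22, and Mir6236 had medians of 124 at ZT2 and 53250 at ZT22. Neither gene passed with Mir6236 as a covariate (adjusted p = 0.296 for Haao and 0.64 for Nadk), and after removal of each library's trend with GC and length Nadk passed (4.24e-05) and Haao did not (0.0697). Haao also lost its call when any of 4 libraries at ZT2 or ZT6 was left out (129 chow ZT2 replicates 2 and 3, ZT6 replicates 1 and 2; adjusted p = 0.0517 to 0.142), without replicate 1 (0.0726) or 2 (0.278) of every time, and with the set fitted alone (0.079). Calls were gained as well. Nadk passed in 129 HFD with the set fitted alone (adjusted p = 0.00131), with Mir6236 (0.0174) and with the GC and length trend removed (0.0416). With time as a factor Nadk (0.00228), Haao (0.0163) and Sirt1 (0.0434) passed in B6 chow, and Haao in Errg-Cre (0.0368). By the cosine fit Sirt1 passed in Errg-Cre alone, with a log2 amplitude of 0.28 ± 0.06 and a peak at ZT 17.9 (adjusted p = 0.0121). That call was lost with time as a factor (0.0589) and without any 1 of the 3 replicate numbers (0.0756 to 0.124). In 129 chow Sirt1 did not pass (amplitude 0.52, adjusted p = 0.121), but did without 4 libraries that stood apart (0.58, 1.68e-04), without replicate 3 (0.00557) and with the set fitted alone (0.0487). Qprt and Nadsyn1 passed in none of the 6 sets, although some alternatives gave a call. With time as a factor Qprt passed in B6 chow (0.0245). Nadsyn1 passed in 129 HFD with that set fitted alone (0.00382) and with the GC and length trend removed (0.0279). It also passed in 129 chow with Mir6236 as a covariate (0.042).

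**Figure D3:**
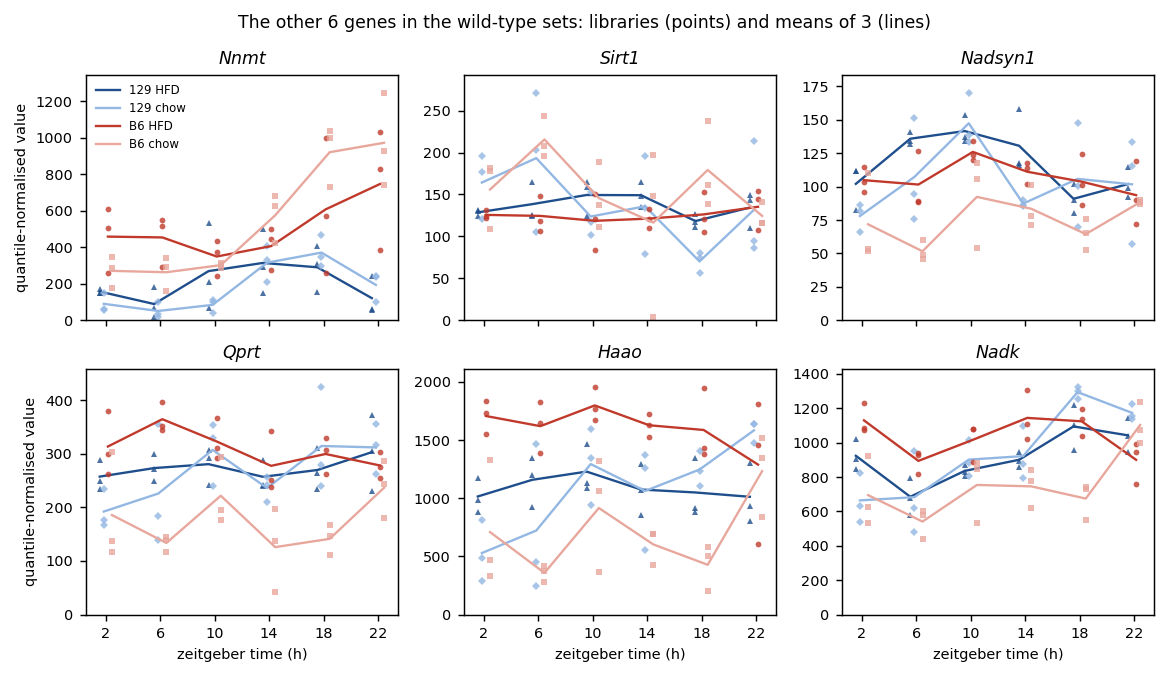
Quantile-normalised values of Nnmt, Sirt1, Nadsyn1, Qprt, Haao and Nadk against zeitgeber time in hours in the 4 wild-type sets, with 1 point a library and lines through the means of 3. Nnmt lies lowest in the 129 sets at most times, Haao lies highest in B6 HFD at most times (mean 1605) and lowest in B6 chow (mean 708), and 1 B6 chow library at ZT14 has almost no Sirt1 (4.2).

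No member's rhythm differed with diet or strain past the threshold on the deposited values. The test compared the cosine and sine terms of 2 sets, so it covers amplitude and peak time together. With diet, 0 of 8 members passed in 129 (background, 1.26%) and 0 of 8 in B6 (0.0532%). Between strains 0 of 8 passed on chow (13.1%) and 0 of 8 on HFD (0.0443%). At an unadjusted p under 0.05 by limma the counts were 2 with diet in 129, 0 with diet in B6, 0 between strains on chow and 2 between strains on HFD. The 2 with diet in 129 were Nampt (change of 0.40 on the log2 scale, adjusted p = 0.238) and Nnmt (0.96, adjusted p = 0.226). The 2 between strains on HFD were Nampt (0.58, adjusted p = 0.45) and Nnmt (0.97, adjusted p = 0.942). The lower Nampt amplitude of the B6 HFD fit (0.45 on HFD and 0.80 on chow) was not called as a change (vector 0.37 ± 0.15, adjusted p = 0.556). These results depended on the fit for Nampt and Nadk. After removal of each library's trend with GC and length Nampt passed with diet in 129 (0.70, adjusted p = 0.00582) and between strains on chow (0.59, 0.00953). With time as a factor in place of a cosine Nadk passed with diet in B6 (adjusted p = 0.0363) and between strains on chow (0.0488).

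In B6 livers on HFD the enzymes that finish de novo NAD synthesis, and NAD kinase, were higher than on chow, and the 2 salvage genes were lower. Of 8 members 4 rose and 2 fell (6 of 8, or 75.0%, against 60.2% of all genes, 27.5% up and 32.7% down). The median log2 change of the 8 was 0.24, against -0.06 over all genes. The members' share is near that of all genes.

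Haao ran from 606.9 to 1957 in B6 HFD (median 1659) and from 201 to 1521 in B6 chow (median 541). The ranges overlapped. Of 18 chow libraries 10 lay below the lowest HFD value, and 1 was at or above 1380, the second-lowest HFD value. Haao averaged 1605 ± 307 in B6 HFD and 708 ± 425 in B6 chow (SD over all times, n = 18 each), a log2 difference of 1.39 ± 0.18 (SE, adjusted p = 4.67e-09, higher at 5 of 6 times). At single times it was called at ZT2, ZT6, ZT14 and ZT18 and was largest at ZT6 (2.18, adjusted p = 1.2e-04). At ZT22 the difference was -0.03 (adjusted p = 0.986).

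Qprt, the enzyme after quinolinate, ran from 238 to 397 in B6 HFD (median 305) and from 42.0 to 304 in B6 chow (median 157). Of 18 chow libraries 14 lay below the lowest HFD value. It averaged 309.6 ± 47.2 in B6 HFD and 174 ± 70.1 in B6 chow, a log2 difference of 0.94 ± 0.13 (adjusted p = 1.46e-08, 6 of 6 times). Nadsyn1, which makes NAD from its acid form, averaged 107 ± 17.2 in B6 HFD and 75.3 ± 23.1 in B6 chow (0.54 ± 0.11, adjusted p = 2.65e-05, 6 of 6 times). Nadk averaged 1035 ± 141 in B6 HFD and 752 ± 215 in B6 chow (0.50 ± 0.07, adjusted p = 1.5e-07, 5 of 6 times). All 4 of these transcripts are GC-rich.

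The salvage genes went the other way. Nampt averaged 899 ± 248 in B6 HFD and 1147 ± 486 in B6 chow, a log2 difference of -0.29 ± 0.10 (adjusted p = 0.0148, lower at 5 of 6 times). The gap was widest at ZT18 (-0.65, adjusted p = 0.0544) and ZT14 (-0.59, 0.0675), and no single time passed. Nmrk1 averaged 158 ± 79.2 in B6 HFD and 191 ± 85.0 in B6 chow (-0.32 ± 0.11, adjusted p = 0.0146, 6 of 6 times). Both calls were lost without replicate 1 of every time (adjusted p = 0.235 for Nampt and 0.0618 for Nmrk1), and that of Nmrk1 also without replicate 3 (0.0557). Nnmt (504 ± 239 on HFD and 551 ± 332 on chow, log2 difference -0.01, 95% interval -0.51 to 0.49) and Sirt1 (125 ± 19.5 on HFD and 156 ± 56.3 on chow, -0.09, -0.53 to 0.35) did not pass. Sirt1 rested on a library: it was 4.2 in B6 chow ZT14 replicate 3, and without that library the difference was -0.37 (adjusted p = 0.00493). In that library 14.8% of kept genes were below 1.

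The B6 diet differences moved with the GC slope and with Mir6236. With Mir6236 as a covariate 0 of 8 members passed in B6, while 5.0% of all genes did, and the log2 differences shrank to 0.19 for Haao (adjusted p = 0.757), 0.37 for Qprt (0.342), 0.28 for Nadsyn1 (0.463) and 0.13 for Nadk (0.634). With each library's GC and length trend removed, Haao (0.93, adjusted p = 1.88e-08), Qprt (0.50, 7.07e-07), Nadk (0.38, 2.13e-06) and Nadsyn1 (0.36, 0.00115) still passed. Under that setting Nmrk1 was at -0.01 (0.94) and Nampt turned to 0.16 (0.137). Mir6236 itself was 5.50 log2 units higher in B6 HFD than in B6 chow, so diet and the covariate are largely the same split of these libraries.

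The libraries were also split by GC slope, a choice made after seeing the data and given as a description; the slope is itself fitted to transcript values, GC-rich ones included, and the split does not replace the fit above. In B6 all 18 HFD libraries had a slope of 0 or more, as did 5 of 18 chow libraries. Those 5 were ZT2 replicate 1, ZT10 replicates 2 and 3, and ZT22 replicates 1 and 2, whereas the HFD libraries covered all 6 times. Haao had a median of 1659 in those HFD libraries and of 1330 in those 5 chow libraries (1066 to 1521), against 427 in the 13 chow libraries with a slope below 0. Qprt had a median of 305 in the HFD libraries and of 286 in the 5 chow libraries, Nadsyn1 of 109 in HFD and 105 in those chow libraries, and Nadk of 1059 in HFD and 925 in those chow libraries. In 129 chow the 12 libraries with a slope of 0 or more had a median Haao of 1386 and the 6 below 0 of 469. Those 6 were ZT2 replicates 1, 2 and 3, ZT6 replicates 1 and 2, and ZT14 replicate 1. GC slope and time of day therefore cannot be told apart in this split. What made the GC slope differ between libraries was not tested.

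**Figure D4:**
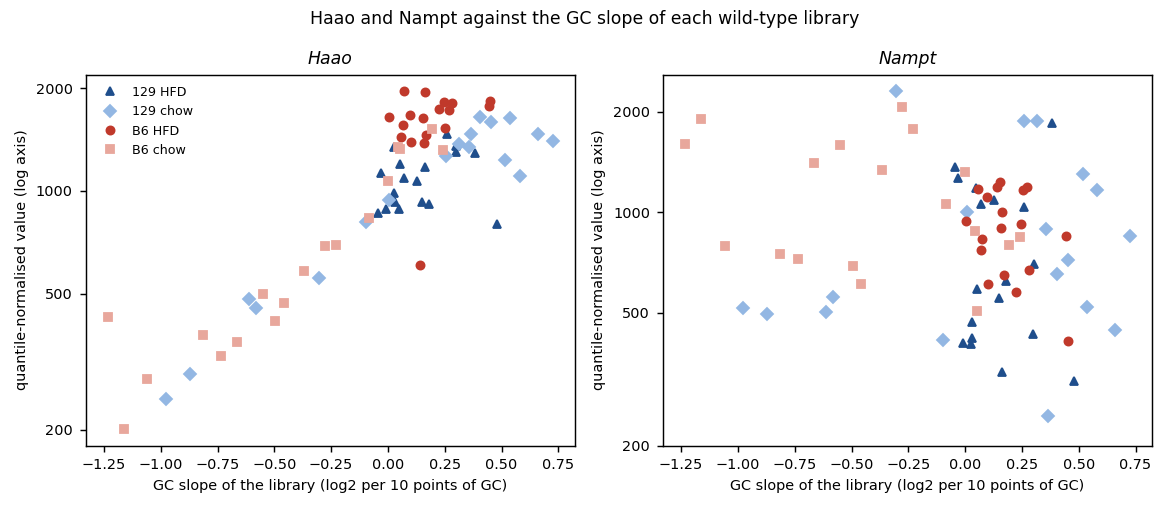
Quantile-normalised values of Haao (left) and Nampt (right) on a log axis against the GC slope of each of the 72 wild-type libraries, in log2 units per 10 points of GC. Haao is lowest in the chow libraries with a slope below 0 (medians 427 in B6 chow and 469 in 129 chow), while Nampt covers a wide range of values on both sides of 0.

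In 129 livers none of the 8 genes passed the test of diet (0 of 8, against 18.35% of all genes), and none had an unadjusted p under 0.05 by limma. The nearest was Nadsyn1, with 117 ± 23.3 in 129 HFD and 105 ± 33.4 in 129 chow (0.20, adjusted p = 0.198). Haao averaged 1090 ± 203 in 129 HFD and 1073 ± 482 in 129 chow, a log2 difference of 0.20 with a 95% interval of -0.15 to 0.56. Qprt averaged 274 ± 37.8 in 129 HFD and 265 ± 77.8 in 129 chow (0.10, -0.16 to 0.35), and Nadk 914 ± 158 in 129 HFD and 940 ± 267 in 129 chow (-2e-04, -0.15 to 0.15). Nampt averaged 782 ± 439 in 129 HFD and 907 ± 585 in 129 chow (-0.17, -0.37 to 0.04), and Nmrk1 156 ± 91.6 in 129 HFD and 136 ± 66.8 in 129 chow (0.10, -0.13 to 0.33). Haao passed in 129 with Mir6236 as a covariate (0.41, adjusted p = 0.0318).

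The diet effect in 129 minus that in B6 was tested directly, and 4 of 8 members passed (34.4% of all genes did). Qprt differed by -0.84 ± 0.18 (adjusted p = 4.22e-04), Haao by -1.18 ± 0.25 (4.29e-04) and Nadk by -0.50 ± 0.11 (4.08e-04), each with a smaller diet effect in 129. Nmrk1 differed by 0.42 ± 0.16 (0.0389), and its call was lost in 22 of 72 refits that each left out 1 library (adjusted p = 0.0504 to 0.0623). The Nmrk1 call was also lost without replicate 1 (0.0898), 2 (0.158) or 3 (0.107) of every time. With Mir6236 as a covariate 0 of 8 passed, and the sign for Haao turned (0.22, adjusted p = 0.909). With the GC and length trend removed Haao (-0.84, 5.91e-04), Qprt (-0.51, 8.05e-04) and Nadk (-0.44, 3.79e-04) passed and Nmrk1 did not (0.06, 0.852). Sirt1 did not pass on the deposited values (0.21, adjusted p = 0.624), but did without B6 chow ZT14 replicate 3 (0.49, 0.0168). Nadsyn1 did not pass either (-0.34, 0.0748). Without 4 libraries that stood apart, Sirt1 (0.57, 0.00363) and Nadsyn1 (-0.43, 0.016) passed as well, where 41.9% of all genes did.

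**Figure D5:**
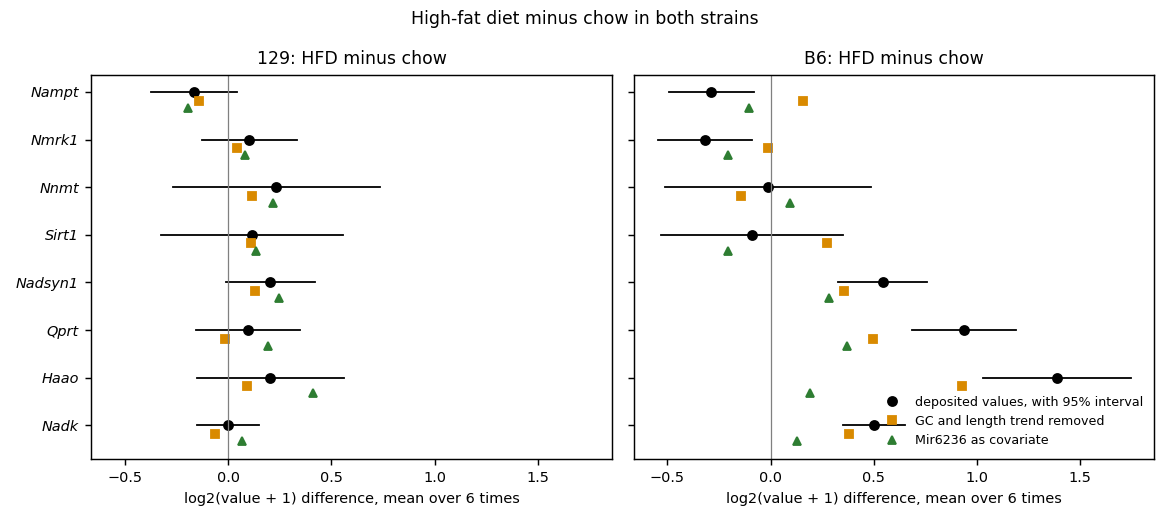
Log2 difference, HFD minus chow and averaged over 6 times, for each gene in 129 (left) and B6 (right), with 95% intervals on the deposited values and point estimates under 2 alternatives. In B6 Haao stands at 1.39 on the deposited values, 0.93 with the GC and length trend removed and 0.19 with Mir6236 as a covariate, and in 129 every interval includes 0.

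Between strains, Nnmt was the member that differed by the most, and it was lower in 129 on both diets. On HFD Nnmt ran from 17.4 to 530.3 in 129 (median 163) and from 240.0 to 1029 in B6 (median 471.5). On chow it ran from 17.1 to 469 in 129 (median 131) and from 159 to 1246.5 in B6 (median 386). The log2 difference, 129 minus B6, was -1.56 ± 0.25 on HFD (adjusted p = 1.01e-06) and -1.81 ± 0.25 on chow (adjusted p = 3.42e-08), lower in 129 at 6 of 6 times on each diet. It passed with Mir6236 as a covariate (-1.62 on HFD, adjusted p = 5.1e-05, and -1.74 on chow, 2.04e-04) and with the GC trend removed (-1.58 on HFD, 4.95e-07, and -1.84 on chow, 1.5e-08). The mm10 build is the B6 genome, and mapping of 129 reads to it was not tested.

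On HFD 4 of 8 members passed between strains, all lower in 129 (32.3% of all genes passed, 19.0% up and 13.3% down). Beside Nnmt these were Haao (1090 in 129 and 1605 in B6, -0.54 ± 0.18, adjusted p = 0.0141), Nampt (782 in 129 and 899 in B6, -0.35 ± 0.10, 0.00679) and Nadk (914 in 129 and 1035 in B6, -0.19 ± 0.07, 0.0479). The Nadk call was lost in 24 of 36 refits without 1 library of these sets (adjusted p = 0.0511 to 0.0862). Without a replicate number the Haao call was lost for replicate 1 (0.0752) and 2 (0.146), the Nampt call for replicate 2 (0.105) and the Nadk call for each (0.054 to 0.414). Markers of some other cells were lower in 129 too: on HFD 8 of 10 Kupffer cell and 5 of 7 stellate cell markers, and on chow 7 of 10 Kupffer cell markers. Of all genes 13.3% were lower on HFD and 27.5% on chow. Others were not lower: on chow the median sum of sinusoidal endothelial markers was 2379 in 129 and 1716 in B6. That of stellate cell markers on chow was 2276 in 129 and 2246 in B6. Kupffer cell sums ran from 914 to 2125 in 129 HFD and from 1213 to 5884 in B6 HFD, and from 633 to 2522 in 129 chow and from 824 to 2105 in B6 chow. The part of these cells in the strain differences, that of Nnmt included, was not tested. With Mir6236 as a covariate Nampt passed (-0.44, 0.00708), Haao turned sign (0.06, adjusted p = 0.835) and Nadk did not pass (-0.001, 0.995). With the GC trend removed Haao (-0.51, adjusted p = 9.68e-04), Nampt (-0.36, 7.15e-04) and Nadk (-0.24, 0.00212) passed.

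On chow 7 of 8 passed, 4 higher and 3 lower in 129 (52.9% of all genes passed). Higher in 129 were Qprt (265 in 129 and 174 in B6, 0.67 ± 0.13, adjusted p = 2.04e-05), Haao (1073 and 708, 0.64 ± 0.18, 0.00241), Nadsyn1 (105 and 75.3, 0.46 ± 0.11, 3.48e-04) and Nadk (940 and 752, 0.31 ± 0.07, 4.93e-04). Lower were Nnmt, Nmrk1 (136 in 129 and 191 in B6, -0.51 ± 0.11, 2.46e-04) and Nampt (907 and 1147, -0.47 ± 0.10, 1.86e-04). Sirt1 averaged 137 in 129 and 156 in B6 and did not pass (-0.08, adjusted p = 0.774), but without B6 chow ZT14 replicate 3 the difference was -0.36 (0.00796). The Haao call was lost without replicate 2 of every time (0.0541). With Mir6236 as a covariate Nnmt alone passed, and Haao turned sign (-0.16, 0.705). With the GC trend removed Nampt (-0.06, 0.584) and Nmrk1 (-0.16, 0.258) did not pass, and Haao did (0.33, 0.0319). Mir6236 itself was 3.69 log2 units higher in 129 than in B6 on chow and 2.76 lower on HFD (log2 difference -2.76).

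In the sets of the other tables, Haao averaged 1612 in Esrrg LKO libraries and 2030 ± 430 in Errg-Cre libraries, and Qprt 446 and 434.5. Nadk averaged 1111 and 1177, Nadsyn1 121 and 175, and Sirt1 84.1 and 140. Nampt averaged 593 ± 182 in Esrrg LKO and 859 ± 405 in Errg-Cre, Nmrk1 114 ± 64.0 and 173 ± 92.7, and Nnmt 340 ± 186 and 363 ± 379. No difference between these sets was tested, because strain, genotype and normalisation differ together.

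The rest of the pathway was read from lists of 41 further genes, which were chosen with earlier results of these data known. Tdo2 and Acmsd of the kynurenine pathway fell on HFD in both strains. Of 9 de novo genes above the filter (of 10), 1 rose and 3 fell in 129 (18.35% of all genes were called), and 1 rose and 5 fell in B6 (60.2%). Acmsd, which draws an intermediate away from quinolinate, averaged 184 in 129 HFD and 407 in 129 chow (-1.12, adjusted p = 1.34e-05), and 71.2 in B6 HFD and 264 in B6 chow (-1.75, 5.9e-11). Tdo2, the entry enzyme that opens tryptophan, averaged 10997 in 129 HFD and 14120 in 129 chow (-0.31, 0.00449), and 10061 in B6 HFD and 18803 in B6 chow (-0.88, 4.83e-13). Kmo, the hydroxylase in between, rose in both strains (0.34 in 129, 2.84e-06, and 0.22 in B6, 4.24e-04). Afmid fell in B6 (-0.64, 8.05e-05). Acmsd and Tdo2 kept their calls in both strains, and Afmid in B6, with Mir6236 as a covariate and with the GC trend removed. Kmo did so in 129, but in B6 it missed with Mir6236 (0.22, adjusted p = 0.178).

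Of 5 other salvage genes above the filter (of 8), 1 rose in 129 and 3 rose and 1 fell in B6, beside the same 18.35% and 60.2% of all genes. Naprt, which starts NAD synthesis from nicotinic acid, averaged 270.1 in B6 HFD and 94.3 in B6 chow (1.99, adjusted p = 1.77e-07), but with Mir6236 as a covariate none of the 4 B6 calls remained. Pnp rose in 129 (0.30, 0.0168), and kept that call with Mir6236 but lost it with the GC trend removed. Of 6 genes of NADP supply and repair, 1 rose and 1 fell in 129, and 3 rose and 2 fell in B6, against those shares. Naxe, which repairs damaged NADH and NADPH, rose in both strains (0.26 in 129, 0.0309, and 0.57 in B6, 3.46e-07) and lost both calls with the GC trend removed. Slc25a51, the mitochondrial NAD carrier, fell in both (-0.37 in 129, 0.00695, and -0.24 in B6, 0.0391), and its B6 call was lost under both alternatives.

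Of 12 genes above the filter (of 15) for enzymes that consume NAD, 1 rose in 129 (18.35% of all genes were called), and 5 rose and 2 fell in B6, a share near the 60.2% of all genes. Sirt3, the mitochondrial deacetylase, rose in both strains, with 317 in 129 HFD and 241 in 129 chow (0.52, adjusted p = 0.00544) and 370 in B6 HFD and 163 in B6 chow (1.31, 5e-11). In 129 it passed under both alternatives; in B6 it passed with the GC trend removed (0.95, 1.22e-12) and not with Mir6236 (0.54, 0.143). Sirt5 (0.91, 3.16e-04), Sirt7 (0.85, 2.17e-07) and Parp1 (0.67, 1.76e-08) rose in B6, and none of the 3 passed with Mir6236. Cd38, which breaks NAD down, fell in B6 (-0.44, 6e-04), and lost that call under both alternatives. Aox1, an oxidase that acts on nicotinamide products, fell in B6 (-0.73, 2.31e-08) and passed under both alternatives.

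Between strains the clearest pathway gene was Nnt, the mitochondrial transhydrogenase that makes NADPH from NADH; C57BL/6J is known to carry a deletion inside this gene. Nnt averaged 744 in 129 and 358 in B6 on HFD (1.07, adjusted p = 2.17e-21), and 701 in 129 and 257 in B6 on chow (1.44, 3.43e-27). The ranges of the strains did not overlap on either diet, and both calls held with Mir6236 and with the GC trend removed. Of the 9 de novo genes 5 were higher and 2 lower in 129 on HFD, and all 7 kept their calls under both settings. On chow 3 were higher and 3 lower, and of these 6 calls 3 were kept with Mir6236 and 5 with the GC trend removed, with 1 sign turned in each. Acmsd was higher in 129 on both diets (1.37 on HFD and 0.73 on chow), as was Ido2 (0.89 and 0.74), while Kmo (-0.39 and -0.51) and Kyat3 (-0.77 and -0.62) were lower on both.

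Other genes of the pathway also cycled. Slc25a51 peaked at ZT 14.09 in 129 HFD, 14.70 in 129 chow and 15.66 in B6 chow (adjusted p = 2.55e-04, 1.83e-04 and 0.0128). Acmsd peaked in the dark phase on chow, at ZT 21.77 in 129 and 20.14 in B6, with log2 amplitudes of 0.92 and 1.17 (adjusted p = 2.63e-04 and 3.44e-05). Kynu peaked near lights on in 5 of 6 sets, all but B6 HFD. In 129 chow 8 of 9 de novo genes passed, against the 47.8% of all genes in that set.

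Markers of other cell types changed with diet as well. In 129, on HFD, 6 of 10 Kupffer cell markers were higher and none lower, where 10.9% of all genes were higher and 7.45% lower. Their summed level ran from 914 to 2125 in HFD libraries and from 633 to 2522 in chow libraries. In B6, 6 of 10 were higher too, where 27.5% of all genes were higher and 32.7% lower. The Kupffer cell sums there ran from 1213 to 5884 on HFD and from 824 to 2105 on chow. Stellate cell markers in B6 were higher for 6 of 7 (sums 2602 to 4632 on HFD and 1848 to 2523 on chow). Of 8 hepatocyte markers in B6, 2 were higher and 4 lower, beside the same shares of all genes. Hepatocyte sums ran from 262103 to 1474880 in B6 HFD and from 1036970 to 1415390 in B6 chow. Median sums of sinusoidal endothelial markers were 2556 in B6 HFD and 1716 in B6 chow, and 2412 in 129 HFD and 2379 in 129 chow. Among neutrophil markers Ly6g, Mpo, Elane and Retnlg averaged under 1 in 129 HFD, 129 chow and B6 chow, whereas 1 B6 HFD library, ZT22 replicate 3, had S100a8 at 6588. That library also had the lowest Haao of its set (606.9). The part of these cells in the members' differences was not tested. Without that library and 3 others that stood apart (B6 HFD ZT6 replicate 1, B6 chow ZT14 replicate 3 and 129 chow ZT22 replicate 3), the 6 B6 calls of the members stood and Sirt1 passed as well (-0.39, adjusted p = 0.00264).

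Genes among the 3 most like each member over the 24 wild-type group means were named by Pearson's r, as a description. They were Trim24 (0.946), Cyp7a1 (0.913) and Alas1 (0.894) for Nampt, and Usp2 (0.886), Nampt (0.876) and Wee1 (0.866) for Nmrk1. For Nnmt they were Ncoa4 (0.885) and Ahcy (0.825), and for Sirt1 Rbpj (0.922), Nbea (0.921) and Ddb2 (0.918). For Nadsyn1 they were Gprc5c (0.912), Wipi2 (0.885) and Limd2 (0.884), and for Nadk Mgll (0.937) and Asl (0.929). For Qprt they were Timm13 (0.97), Gnb2 (0.968) and Naprt (0.968), and for Haao Gamt (0.98), Prdx2 (0.978) and Psmb6 (0.976). Among the members Nampt and Nmrk1 went together (0.876), as did Qprt and Haao (0.879) and Haao and Nadk (0.827). These points share libraries, and with them the GC slope and Mir6236 level described above.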

How the data were processed

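Liver RNA of 108 libraries was read from 3 tables of signal values per transcript, which the authors quantile-normalised before they deposited them: the sorted values are identical within each table (total per library 10837743 for wild type, 12305608 for Errg-Cre and 10346206 for Esrrg LKO). STAR, HOMER and mm10 are named by the submitters' processing notes, with no versions. Quantile normalisation removes differences in total and hides sequencing depth, which is therefore unknown; no counting interval is given. The table with Errg-Cre also holds 18 columns with no matching label, which were not used. Columns of the Esrrg LKO table read ErrgCre and were matched by the description, time and replicate number.

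For each symbol the transcript with the highest mean was kept if that mean was at least 10 in its table (11287 genes in wild type, 11622 and 11946 in the others). Values were analysed as log2(value + 1) with limma 3.58.1 in R 4.3.3 (moderated variances with a trend), and p-values were adjusted by Benjamini-Hochberg over all genes at 0.05. Fold changes on this scale understate the change of low genes. Level differences came from 24 wild-type group means averaged over 6 times. Rhythms were 24 h cosine fits tested on 2 degrees of freedom, in 1 joint wild-type fit and in each other table alone. Tests were made within a table only. Alternatives were a pseudocount of 10, no filter, sums over transcripts, robust variances, a replicate block, time as a factor, each set alone, a Mir6236 covariate, removal of trends with GC and length, and libraries or replicates left out. Named genes were the 8 members, the listed pathway genes past the threshold and the 3 genes most like each member, of which some are not reported here. The members, lists and markers were chosen with earlier results of these data known, and the split by GC slope was chosen after seeing the data.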

Additional observations from a re-analysis of the deposited data

Results flagged for a closer look

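The diet effect differed between strains for 4 of the 8 genes by limma's test of the difference, given as the effect in 129 minus that in B6 on the log2 scale. Qprt differed by -0.8394, Haao by -1.1831 and Nadk by -0.5006, and each had the larger HFD effect in B6. Nmrk1 differed by 0.42, with a rise of 0.10 in 129 that did not pass and a fall in B6. The Nmrk1 call was lost without any 1 of the 3 replicate numbers (adjusted p = 0.0898 to 0.158). None of the 4 passed with Mir6236 as a covariate, and the part of the library differences in these results was not tested.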

How the results depend on the processing

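Of 1656 comparisons of a result with an alternative, 1538 kept their side of the threshold, 57 lost a call and 36 gained one. Level differences had to keep their sign as well. For rhythms the peak time was compared only where both fits gave a call, so an uncalled peak could move and still count as kept. Changes of rhythm and fits with time as a factor were judged by the call alone. The sign turned in 21 where neither fit gave a call, and in 4 where the deposited values gave a call. With Mir6236 as a covariate the members called numbered 0 for diet in B6 (6 on the deposited values), 1 for diet in 129 (0), 0 for the difference in diet effect (4), 1 for strain on chow (7), 2 for strain on HFD (4) and 4 for rhythm in 129 HFD (2). With the GC and length trend removed they numbered 5 for rhythm in 129 HFD, 1 for rhythm change with diet in 129 (0) and 1 for rhythm difference between strains on chow (0). With time as a factor they numbered 7 for rhythm in B6 chow (3), where the share of all genes was 25.8% (6.16% with the cosine), 1 for rhythm change with diet in B6 (0) and 1 for rhythm difference between strains on chow; with each set fitted alone, 1 for rhythm in B6 HFD (2) and 4 in 129 HFD. Leaving out a replicate number gave 1 to 3 for strain on HFD and 1 to 2 for rhythm in B6 HFD, and leaving out single libraries gave 3 to 4 and 1 to 2. Of the 4 with a call, Nampt turned sign for diet in B6 with the GC and length trend removed (0.16). With Mir6236 Haao did so in the difference of diet effects (0.22), strain on chow (-0.16) and strain on HFD (0.057). The cause was not tested. With the replicate block 3 of 8 members differed between strains on HFD (4 without it), with Nadk at an adjusted p of 0.0522. Of 120 results 119 kept their call. Same-numbered libraries did not deviate together on average (mean r -0.039 to 0.046). Such an average cannot exclude a pairing, so whether the numbers pair samples is not known. Depth is unknown, which limits what low values can show.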
